A study of Homo sapiens with 16 samples.

Results

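Nuclear receptors turn genes on through coactivators, proteins that the hormone-bound receptor gathers at its target genes. The p160 proteins bind the receptor first and bring in the histone acetyltransferases EP300 and CREBBP and the arginine methyltransferase CARM1, while MED1 ties the receptor to Mediator and so to RNA polymerase II. In prostate cancer cells these proteins are known for setting how strongly androgen target genes respond to hormone. Here the transcripts of 10 such genes were followed, chosen by name from the coactivator families: the p160 genes NCOA1, NCOA2 and NCOA3, the acetyltransferase genes EP300 and CREBBP, and MED1, CARM1, NCOA4, NCOA6 and NCOA7. They are 10 of the 20531 entries in the count table, and all 10 passed the filter on low counts in every comparison.

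The RNA came from LNCaP, a human prostate carcinoma line grown from a lymph node metastasis, which responds to androgen. Cells received either a nonsense control siRNA (NS) or siRNA against SLIRP, an RNA-binding protein that represses nuclear receptors, and then ethanol vehicle or 1 nM dihydrotestosterone (DHT), an androgen, in medium without serum. The 4 groups had 4 libraries each: the controls NS-Veh and NS-1nM DHT, and the knockdown groups, called SLIRP-Veh where they received vehicle and SLIRP-1nM DHT where they received hormone. The controls carry a transfected siRNA too, of 1 nonsense sequence, while SLIRP was targeted by a pool of siRNAs. Loss of SLIRP therefore cannot be told apart from other differences between the siRNAs, and knockdown below names the groups compared. All 16 libraries are from the 1 cell line, and the 4 libraries of a group are pairs of biological replicates from 2 experiments. The experiment of each library is not in the labels, so it could not be entered in the fits and the p-values measure the spread between libraries, which may be partly technical.

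Libraries held 436353 to 1689708 counts, so that a member had between 18 and 481 counts in a library. SLIRP itself lay at 45.1 to 63.4 counts per 1000000 counts of the library (CPM, TMM-scaled) in the 8 NS libraries and at 1.41 to 8.04 CPM in the 8 SLIRP knockdown libraries. The 10 luminal prostate markers checked were all detected, with a summed level of 6331 to 7351 CPM in NS and 4125 to 4621 CPM in SLIRP knockdown libraries, and over both treatments 5 of them fell with SLIRP knockdown. Most of the lower sum was in STEAP2 (mean 2501 CPM in NS, 1140 CPM after knockdown) and FOLH1 (1960 and 1230 CPM). Other luminal markers moved the opposite way. KLK3 was called higher after knockdown in vehicle, by 1.11 on the log2 scale (edgeR adjusted p = 1.04e-06), and KLK3, KLK2 and TMPRSS2 were called higher in DHT, by 0.37, 0.92 and 0.50. The 10 markers of other cell types summed to 17.7 to 34.2 CPM across all 16 libraries, with KRT5, TP63, PECAM1 and PTPRC at 0 throughout. The part of the lower luminal marker sum in the coactivator results was not tested, and in bulk RNA fewer cells of a kind and less RNA per cell cannot be told apart.

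With SLIRP knockdown the transcripts of 3 of the 10 coactivators, NCOA2, NCOA7 and NCOA4, were lower. None was higher past the threshold of an adjusted p of 0.01. NCOA2 fell to 0.571 of its NS level, NCOA7 to 0.675 and NCOA4 to 0.828. The other 7 did not pass, although CREBBP, MED1 and EP300 stood higher on average. The comparison set 8 SLIRP knockdown libraries against 8 NS libraries, vehicle and DHT together, by edgeR's quasi-likelihood test with p-values adjusted over all 10167 genes tested. Of those genes 17.4% were called lower and 17.8% higher, so 3 of 10 lower and 0 of 10 higher is a description of these members against a background where many genes moved. The median log2 fold change was -0.12 over the 10 members and -0.0145 over all genes tested. Only 1 member, NCOA2, had groups that did not overlap between the 8 and 8 libraries, as 15.2% of the genes tested did.

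**Figure D1:**
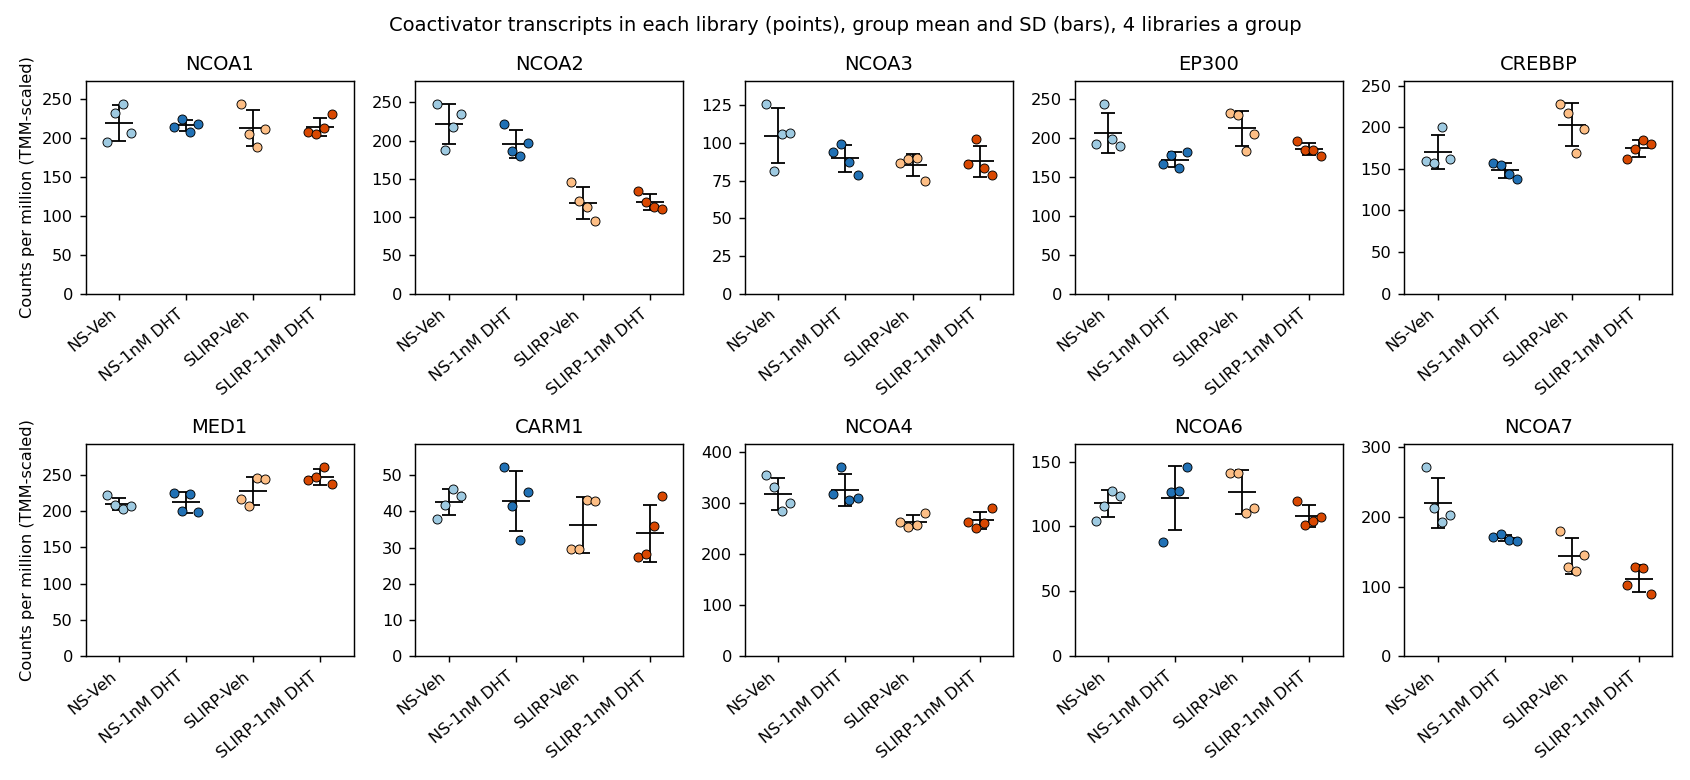
TMM-scaled counts per 1000000 (CPM) of the 10 coactivator genes in each of the 16 libraries; points are libraries, the long dash is the group mean and the whiskers its SD (4 libraries a group), and each vertical axis starts at 0. NCOA2 lies at 94.7 to 146 CPM in the SLIRP knockdown libraries, below every NS library (180.3 to 248 CPM). The group means of NCOA7 are lower with SLIRP knockdown and with DHT. Its DHT comparison did not pass in NS (edgeR adjusted p = 0.0522) or in knockdown libraries (edgeR adjusted p = 0.062).

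The p160 family came first, as the proteins that contact the receptor. NCOA2 (also TIF2 or GRIP1), on the minus strand of chromosome 8 from 71022017 to 71316043 in hg19, held 248, 188, 218 and 234 CPM in the NS-Veh libraries. With DHT the NS libraries held 221, 186, 180.3 and 197 CPM. After SLIRP knockdown it held 146, 121, 113 and 94.7 CPM with vehicle. With DHT the knockdown libraries held 134, 119.9, 114 and 110.2 CPM. Every knockdown library was below every NS library, under either treatment. The log2 fold change was -0.81 (SE 0.09, 95% interval -0.99 to -0.63, edgeR adjusted p = 6.66e-09), which ranked 1019 of the 10167 genes by size of change.

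The fall of NCOA2 was seen under both treatments. In vehicle the log2 fold change was -0.89 (SE 0.12, edgeR adjusted p = 1.02e-07) and in DHT it was -0.72 (SE 0.11, edgeR adjusted p = 3.92e-06). Leaving out any 1 of the 16 libraries left the change over both treatments between -0.86 and -0.75.

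NCOA1 (SRC-1), on chromosome 2 from 24714123 to 24993571 (plus strand), was the steadiest of the family. Its group means were 219 ± 22.7 CPM (SD, n = 4) with vehicle and 216 ± 6.88 CPM with DHT in the NS libraries. In the knockdown groups they were 212 ± 23.0 CPM with vehicle and 214 ± 11.9 CPM with DHT. The log2 difference between the siRNAs was -0.03, with a 95% interval of -0.17 to 0.11 (edgeR adjusted p = 0.774), so a change of the size seen for NCOA2 lies outside the interval.

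NCOA3 (AIB1), on chromosome 20 from 46130631 to 46285621 (plus strand), was measured from 35 to 160 counts a library and spread more widely. It held 126, 81.1, 106 and 107 CPM in NS-Veh, and its mean in NS-1nM DHT was 90.0 ± 8.93 CPM. After knockdown its means were 85.2 ± 7.27 CPM with vehicle and 87.8 ± 10.5 CPM with DHT. Replicate 2 of NS-Veh lay within the range of the knockdown libraries, so the groups overlapped. The log2 fold change with knockdown was -0.32 in vehicle (SE 0.13, edgeR adjusted p = 0.0517) and -0.05 in DHT (SE 0.13, edgeR adjusted p = 0.797), neither past the threshold.

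Since the p160 proteins share their partners, the balance within the family was also computed, on a scale per length (CPM per kilobase of exon). NCOA2 made up 37.5% ± 2.93 (SD, n = 4) of the summed p160 level in NS-Veh and 36.0% ± 2.22 in NS-1nM DHT. After knockdown it made up 25.9% ± 2.26 with vehicle and 25.9% ± 2.04 with DHT. The NS libraries ranged from 33.6% to 40.4% and the knockdown libraries from 22.7% to 28.7%, without overlap, and these shares carry the same counts as the NCOA2 test above. The share of NCOA1 was 41.4% ± 5.50 in NS-Veh and 51.8% ± 3.18 in SLIRP-Veh, while that of NCOA3 was 21.0% ± 2.74 and 22.3% ± 2.23.

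EP300 and CREBBP, the paired acetyltransferases that the p160 proteins recruit to acetylate histones, did not fall with NCOA2. CREBBP, on the minus strand of chromosome 16 from 3775055 to 3930714, held 160, 158, 201 and 161 CPM in NS-Veh and 228, 218, 169.5 and 198 CPM in SLIRP-Veh. In DHT it held 157, 154, 144 and 138 CPM in NS libraries and 162, 173, 185 and 180.2 CPM in knockdown libraries. The knockdown libraries lay above the NS libraries without overlap in DHT, while in vehicle the highest NS library stood among the knockdown libraries. The log2 difference over both treatments was 0.25 (SE 0.09, edgeR adjusted p = 0.0157), which did not pass 0.01. Whether CREBBP passed depended on the libraries kept and on the model. The edgeR adjusted p was 0.00161 without NS-Veh replicate 3, 0.009 without SLIRP-1nM DHT replicate 1 and 0.00922 without SLIRP-Veh replicate 3. With every library kept, it was 0.00416 with treatment as a covariate. It was 0.00823 with replicate number within treatment as a block.

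EP300, on chromosome 22 from 41488596 to 41576081 (plus strand), had means of 206 ± 25.5 CPM in NS-Veh and 212 ± 22.7 CPM in SLIRP-Veh. In DHT the means were 172 ± 9.51 CPM in NS and 185 ± 7.99 CPM in knockdown libraries. The siRNA groups overlapped under either treatment, and the log2 difference was 0.09 with a 95% interval of -0.07 to 0.26 (edgeR adjusted p = 0.372).

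MED1, the Mediator subunit that binds hormone-bound receptors, lies on the minus strand of chromosome 17 from 37560538 to 37607525. It held 224, 201, 223 and 199 CPM in NS-1nM DHT and 243, 247, 261 and 236 CPM in SLIRP-1nM DHT, so that every knockdown library with DHT was above every NS library with DHT. The log2 difference there was 0.22 (SE 0.09, edgeR adjusted p = 0.0396), short of the threshold. In vehicle the groups overlapped, with means of 210 ± 8.64 and 228 ± 19.3 CPM (log2 difference 0.13, edgeR adjusted p = 0.292), and over both treatments the difference was 0.17 (edgeR adjusted p = 0.0303).

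CARM1, which methylates histones and other coactivators on arginine, was the least measured member with 18 to 70 counts a library. It lies on chromosome 19 from 10982229 to 11033751 (plus strand), and 20.2% of its exon bases also belong to exons of YIPF2 on the opposite strand. The NS libraries held 32.2 to 52.4 CPM (median 42.9) and the knockdown libraries 27.4 to 44.2 CPM (median 32.8). In either knockdown group replicates 1 and 2 were at or under 29.7 CPM and replicates 3 and 4 at or above 35.9 CPM. The log2 difference was -0.28 with a wide 95% interval of -0.55 to -0.01 (edgeR adjusted p = 0.0806).

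NCOA6 is a subunit of the methyltransferase complexes built on KMT2C and KMT2D. It lies on the minus strand of chromosome 20 from 33276901 to 33413454. It held 104 to 128 CPM in NS-Veh, 88.1 to 146 CPM in NS-1nM DHT and after knockdown 110.3 to 141 CPM with vehicle and 102 to 119.98 CPM with DHT. All groups overlapped, and the log2 difference between the siRNAs was -0.05 (95% interval -0.25 to 0.14, edgeR adjusted p = 0.682).

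NCOA4 was first described as a nuclear receptor coactivator and is now best known as the cargo receptor that delivers ferritin to autophagosomes, which frees its iron. It lies on chromosome 10 from 51565199 to 51590734 (plus strand). It held 354, 331, 283 and 300.3 CPM in NS-Veh and 317, 371, 305 and 309 CPM in NS-1nM DHT. In knockdown libraries it held 263, 252, 257 and 280.5 CPM with vehicle and 262, 251, 260.2 and 289.5 CPM with DHT. Within each treatment no knockdown library reached the lowest NS library, but over both treatments the highest knockdown library (289.5 CPM) passed the lowest NS library (283 CPM). NCOA4 fell over both treatments, with a log2 fold change of -0.27 (SE 0.07, edgeR adjusted p = 9e-04).

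The change of NCOA4 in DHT alone was -0.29 (SE 0.09, edgeR adjusted p = 0.00918), just past the threshold, and in vehicle it was -0.24 (SE 0.09, edgeR adjusted p = 0.0413), not past it. The call in DHT was lost with DESeq2 (adjusted p = 0.0207) and when any 1 library other than SLIRP-1nM DHT replicate 4 was left out. Without NS-1nM DHT replicate 2, the highest library, the change was -0.20 (edgeR adjusted p = 0.102). With replicates 3 and 4 alone, a split tried after seeing the data whose relation to the 2 experiments is not given, the change over both treatments was -0.13 (edgeR adjusted p = 0.235), and with replicates 1 and 2 alone it was -0.41 (edgeR adjusted p = 0.00159).

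NCOA7 is a coactivator of the estrogen receptor that also belongs to a family of oxidation resistance proteins, and its gene gives a short form induced by interferon from a start site inside the gene. The gene spans 126102307 to 126253180 on chromosome 6 (plus strand). The counts add up all transcripts of a gene, so the long and short forms could not be told apart. Because the short form has a start of its own, 2 start windows of the gene are printed here from RefSeq (250 bases before to 50 after the start, plus strand). The first is the CpG-rich start from which 4 annotated transcripts begin, at chr6:125790710-125791009 in GRCh38.p14. The second is the internal start of the short form at chr6:125919005-125919304, which lies within the gene and overlaps annotated NCOA7 exons over 81 bases, with the rest in an intron. Capitals mark the core of the interferon-response element, GAAANNGAAA.
NCOA7 upstream start: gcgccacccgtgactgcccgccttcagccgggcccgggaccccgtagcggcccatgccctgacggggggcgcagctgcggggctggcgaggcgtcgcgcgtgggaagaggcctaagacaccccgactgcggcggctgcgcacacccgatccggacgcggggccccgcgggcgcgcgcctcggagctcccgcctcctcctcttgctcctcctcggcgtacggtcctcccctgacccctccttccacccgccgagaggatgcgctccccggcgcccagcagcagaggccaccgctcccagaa
NCOA7 internal start: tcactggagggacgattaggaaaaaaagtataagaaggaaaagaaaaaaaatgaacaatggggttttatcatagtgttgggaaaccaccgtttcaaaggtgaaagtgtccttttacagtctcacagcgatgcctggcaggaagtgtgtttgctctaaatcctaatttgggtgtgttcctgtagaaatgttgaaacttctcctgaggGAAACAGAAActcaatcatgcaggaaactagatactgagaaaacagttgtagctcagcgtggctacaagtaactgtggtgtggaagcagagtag

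The upstream window was 76.3% G and C and held no match to the interferon core on either strand. The internal window was 41.3% G and C and held 1 match, whose first base lies 44 bases before the start. Both windows matched the hg19 genome exactly and at 1 place, the upstream one from 126111856 to 126112155 and the internal one from 126240151 to 126240450. Among the 15 RefSeq windows searched, from 8 of the 10 members, this was the sole match, and 3.57% of the 35116 windows of all genes hold it. The androgen response half-site AGAACA was found in 2 of the 15 windows, 1 of NCOA1 and 1 of CREBBP, and in 14.8% of all windows. A match of letters is a description of the sequence and not evidence of a bound site. Member windows on chromosome 8, where NCOA2 lies, were left out of the search, so nothing is said of NCOA2. NCOA6 had no window in the set.

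NCOA7 fell with SLIRP knockdown under both treatments. It held 272, 213, 193 and 202 CPM in NS-Veh and 179.9, 128, 122 and 145 CPM in SLIRP-Veh. In DHT it held 171, 176, 167 and 166 CPM in NS libraries and 102, 128, 126 and 89.3 CPM in knockdown libraries. Within each treatment the knockdown libraries lay below the NS libraries without overlap. The log2 fold change was -0.53 in vehicle (SE 0.12, edgeR adjusted p = 0.000618) and -0.62 in DHT (SE 0.12, edgeR adjusted p = 0.000131). Over both treatments it was -0.57 (SE 0.11, edgeR adjusted p = 0.000114), with an adjusted p of 0.0102 in replicates 1 and 2 alone.

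Within vehicle 2 of the 10 members were called lower, NCOA2 and NCOA7, and none higher, where 9.95% of the 10684 genes tested were called lower and 11.8% higher. Within DHT 3 of the 10 were called lower, the same pair and NCOA4, and none higher, where 11.6% were called lower and 12.8% higher. In vehicle 3 members had groups without overlap, as 29.3% of all genes did, and in DHT 5 members did, as 32.2% of all genes did. The vehicle and DHT comparisons use different libraries, while the comparison over both treatments contains them.

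**Figure D2:**
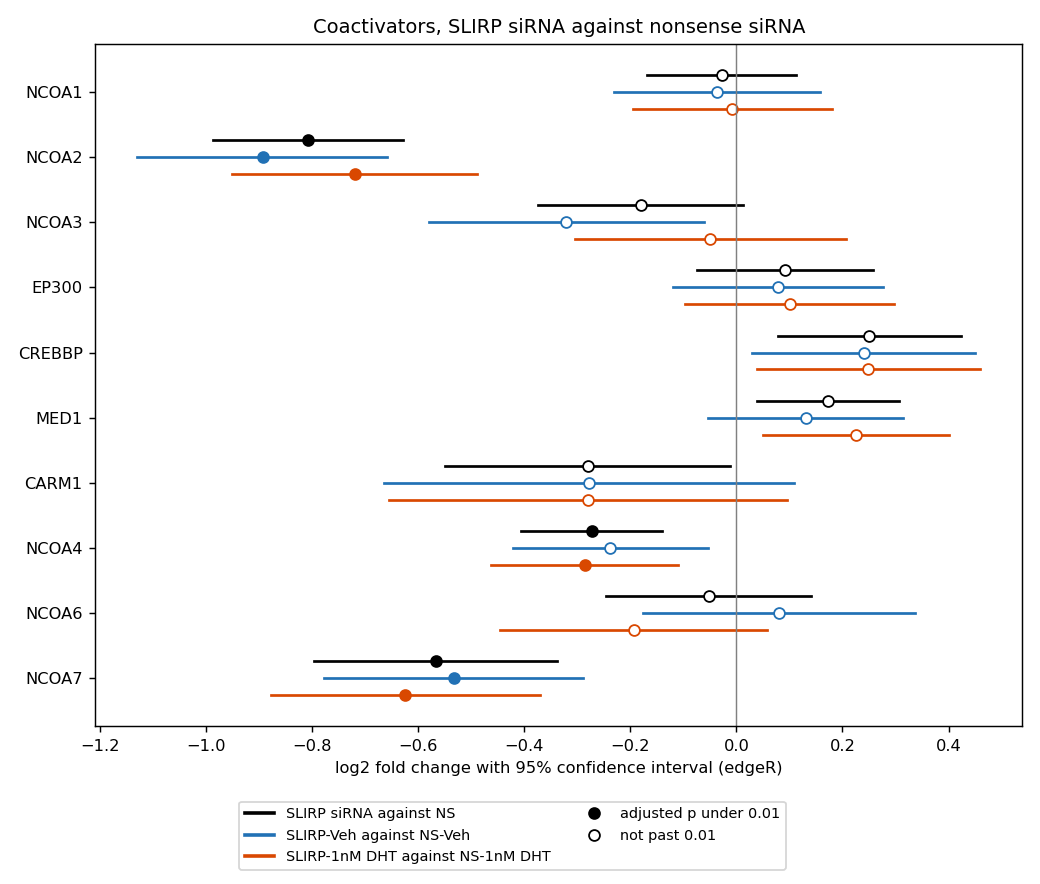
Log2 fold change with SLIRP knockdown (horizontal axis) for each coactivator over both treatments, in vehicle and in 1 nM DHT; lines are 95% confidence intervals from edgeR, and filled points passed an adjusted p of 0.01. NCOA2 (-0.81, -0.89 and -0.72) and NCOA7 (-0.57, -0.53 and -0.62) are filled in all 3 comparisons, NCOA4 in 2, and no point to the right of 0 is filled.

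The response of the coactivators to hormone was compared next, first in the NS libraries. None of the 10 members passed the threshold for 1 nM DHT against vehicle in edgeR or in DESeq2, where 1.31% of the 10367 genes tested in edgeR were called in either direction. At an unadjusted p under 0.05 there were 5 members, NCOA2, NCOA3, EP300, CREBBP and NCOA7, each lower with DHT, where 14.3% of all genes tested were under that p in either direction. The same hormone raised the androgen targets KLK3 by 2.67 and KLK2 by 3.44 on the log2 scale (edgeR adjusted p = 8.21e-15 and 1.6e-07), and TMPRSS2 by 0.69.

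NCOA7 had the lowest log2 fold change of the members with DHT. In the NS libraries all 4 DHT values (166 to 176 CPM) lay below all 4 vehicle values (193 to 272 CPM), and the change was -0.34 (SE 0.10, edgeR adjusted p = 0.0522). In the knockdown libraries the DHT values (89.3 to 128 CPM) overlapped the vehicle values (122 to 179.9 CPM), and the change was -0.43 (SE 0.13, edgeR adjusted p = 0.062). Neither comparison passed on its own. Fitted over both siRNAs with siRNA as a covariate, a comparison chosen after seeing the data, the change was -0.37 (SE 0.09, edgeR adjusted p = 0.00272), and NCOA7 was the 1 member of 10 called lower, where 1.85% of the 10415 genes tested were.

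EP300 and CREBBP had like values in the DHT comparison. In the NS libraries every DHT library was below every vehicle library for both genes, with log2 fold changes of -0.23 (SE 0.09) for EP300 and -0.24 (SE 0.10) for CREBBP and an edgeR adjusted p of 0.217 for each. In the knockdown libraries the groups overlapped, with changes of -0.21 (SE 0.10) and -0.22 (SE 0.10). Over both siRNAs they were -0.21 (edgeR adjusted p = 0.0398) and -0.22 (edgeR adjusted p = 0.0435), short of 0.01. EP300, CREBBP and NCOA7 were the 3 members whose NS groups did not overlap, as 8.77% of all genes did, and in the knockdown libraries 0 members were apart, as 8.4% of all genes were.

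Of the p160 genes, NCOA2 had a log2 fold change of -0.20 with DHT in NS libraries (SE 0.09, edgeR adjusted p = 0.291) and -0.02 in knockdown libraries (SE 0.12, edgeR adjusted p = 0.964). NCOA3 gave -0.24 (SE 0.12) and 0.03 (SE 0.13). NCOA1, NCOA4, MED1 and CARM1 lay between -0.04 and 0.11 in both comparisons, and NCOA6 at 0.03 in NS and -0.24 in knockdown libraries (edgeR adjusted p = 0.373). In the knockdown libraries 0 members were called, where 1.17% of the 10684 genes were, with 3 members (EP300, CREBBP and NCOA7) at an unadjusted p under 0.05, as 15.6% of all genes were.

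Whether SLIRP knockdown changed the hormone response itself was tested as the difference between the siRNAs in the log2 change with DHT. No member was called and none had an unadjusted p under 0.05, and over all 10684 genes 0 were called (0%) in edgeR and in DESeq2, with 388 at an unadjusted p under 0.05. The difference was 0.17 for NCOA2 (95% interval -0.16 to 0.50), 0.27 for NCOA3 (-0.09 to 0.64), -0.27 for NCOA6 (-0.63 to 0.09) and -0.09 for NCOA7 (-0.44 to 0.26). For CARM1 the interval ran from -0.56 to 0.55, the widest among the members, so that differences within those bounds in either direction remain possible.

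**Figure D3:**
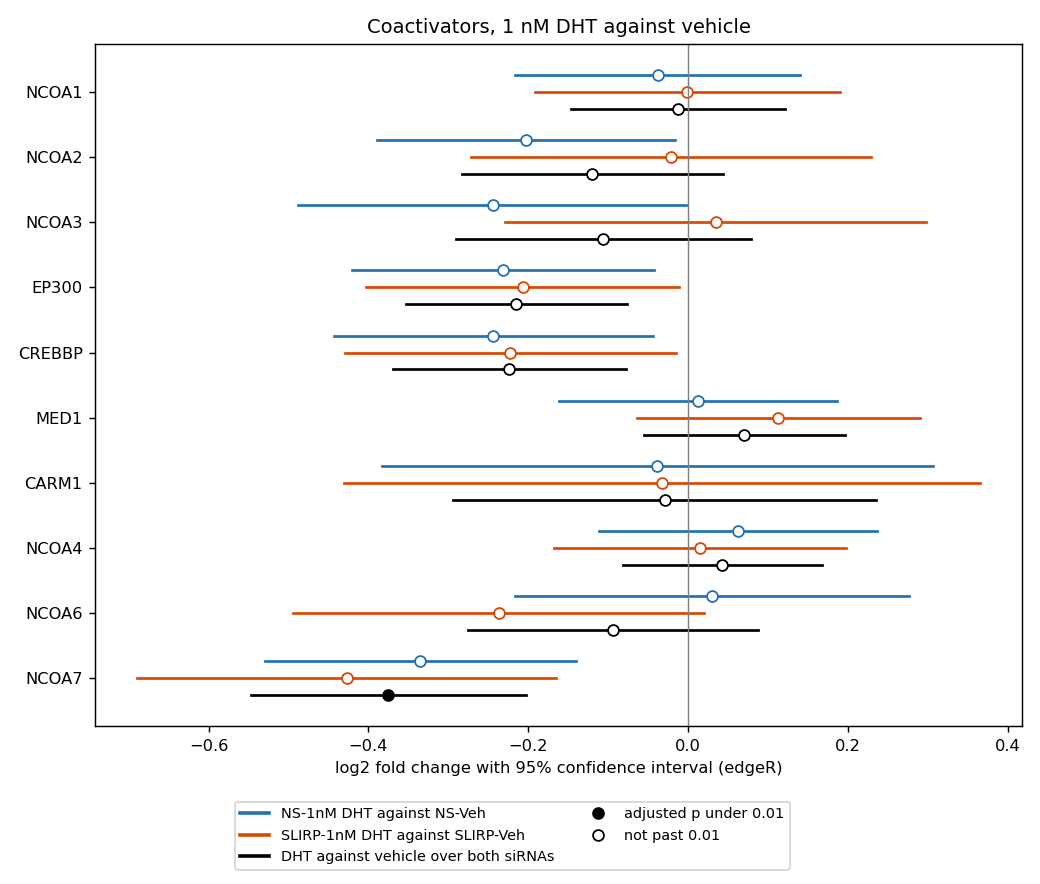
Log2 fold change with 1 nM DHT against vehicle (horizontal axis) for each coactivator in NS libraries, in SLIRP knockdown libraries and over both siRNAs; lines are 95% confidence intervals from edgeR, and the filled point passed an adjusted p of 0.01. NCOA7 over both siRNAs (-0.37) is the sole filled point, and the NS and knockdown intervals of every gene overlap.

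Compared per length, the members covered a wide span of levels. NCOA4 stood at the top in all 16 libraries with a mean of 73.4 ± 9.20 CPM per kilobase of exon (SD over 16 libraries). MED1 followed at 26.0 ± 2.28, NCOA1 at 23.9 ± 1.77, NCOA7 at 21.1 ± 6.07, EP300 at 16.6 ± 1.98 and NCOA2 at 16.4 ± 5.06 CPM per kilobase. CREBBP (11.3 ± 1.67), NCOA3 (10.9 ± 1.59), NCOA6 (10.7 ± 1.45) and CARM1 (8.81 ± 1.71) lay lowest. Every pair of neighbours below NCOA4 overlapped in range over the 16 libraries, so that part of the pooled order is not beyond the spread. The order also differed between the groups. Of the pairs next to each other below NCOA4 within NS-1nM DHT, NCOA2 was above EP300, EP300 above NCOA6 and NCOA1 above NCOA7 in 4 of 4 libraries without overlap. Within SLIRP-1nM DHT MED1 was above NCOA1 and NCOA1 above EP300 in the same way. So was EP300 above NCOA3 in NS-Veh and above CREBBP in SLIRP-Veh. By the longest transcript in place of all exons, these orders stayed without overlap except for NCOA1 and NCOA7, MED1 and NCOA1, and EP300 and CREBBP. By that length NCOA1 was above NCOA7 and EP300 above CREBBP in 4 of 4 libraries and MED1 above NCOA1 in 3 of 4, with ranges that overlapped in the first and last pair. The range of EP300 in SLIRP-Veh began at 20.84 and that of CREBBP ended at 21.17 CPM per kilobase. In NS-Veh NCOA7 was above MED1 in 4 of 4 libraries, with ranges that overlapped. Over all groups MED1 was above NCOA1 in 11 of 16 libraries and NCOA3 above NCOA6 in 8 of 16. NCOA7 and NCOA2 had the widest spread for their level, and their group means ran from 28.8 ± 4.66 (NS-Veh) to 14.6 ± 2.49 (SLIRP-1nM DHT) for NCOA7 and from 22.2 ± 2.60 (NS-Veh) to 11.8 ± 2.11 (SLIRP-Veh) for NCOA2.

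**Figure D4:**
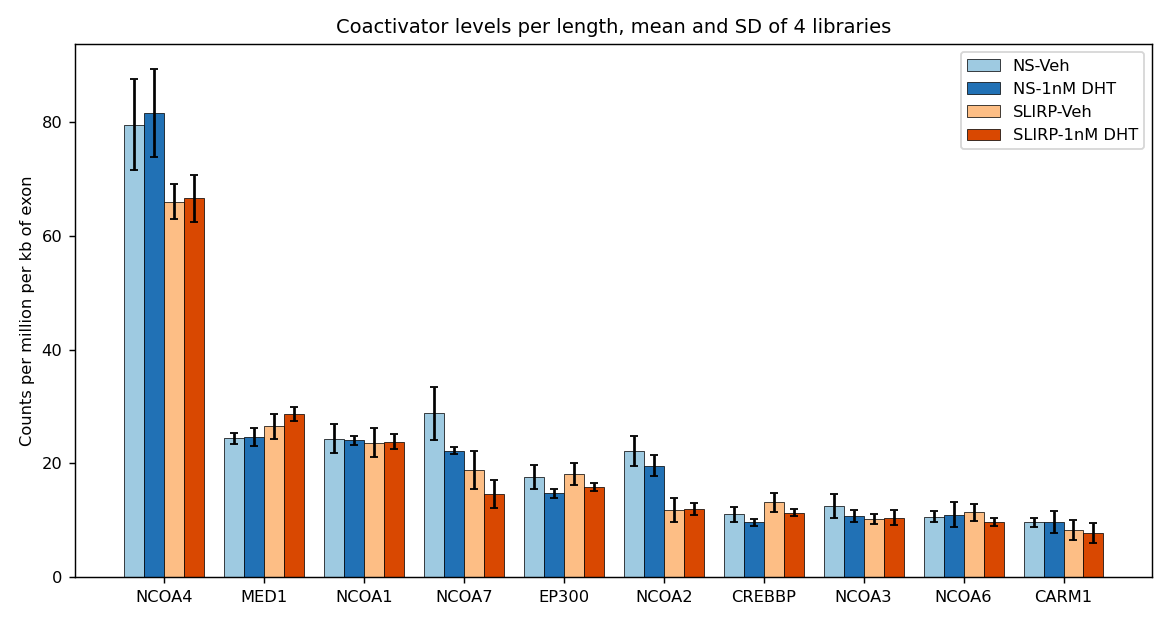
Mean level of each coactivator in CPM per kilobase of exon (vertical axis, from 0) in the 4 groups, with SD over 4 libraries, ordered by the mean over groups. NCOA4 is above every other member, and its mean steps from 79.6 and 81.5 in NS to 66.0 and 66.6 after knockdown; NCOA2 and NCOA7 step down too.

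By likeness over the 16 libraries, the genes closest to NCOA2 among 2697 genes with a mean of at least 100 counts were ASH1L (Pearson r = 0.954), IFI6 (0.950), HINT3 (0.947), DCTN4 (0.942) and MTUS1 (0.937), computed on log2 CPM. ASH1L encodes a histone methyltransferase and IFI6 is an interferon-induced gene. The libraries form 2 siRNA groups that do not overlap in NCOA2, and all 5 genes were lower on average after knockdown too. ASH1L had a mean of 209.6 CPM in NS and 111 CPM in knockdown libraries, and IFI6 215 and 15.98 CPM. Whether NCOA2 and these 5 genes follow loss of SLIRP or another difference between the siRNAs was not tested.

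The partners of these coactivators were described from lists of related genes, whose counts are to be read against the 17.4% of all genes tested that were called lower and the 17.8% called higher. Among the 30 tested Mediator subunits other than MED1, 5 fell and 3 rose with SLIRP knockdown and 22 did not pass, with a median log2 fold change of -0.08, so the share called lower was close to that of all genes and the share called higher below it. MED21, a subunit of the middle module, fell by 1.16 on the log2 scale (SE 0.14, edgeR adjusted p = 2.61e-08). CDK19, a kinase of the Mediator kinase module, fell by 0.82 (SE 0.08, edgeR adjusted p = 1.59e-09). MED31 and MED17 rose, by 0.91 (SE 0.25) and 0.59 (SE 0.12) on the log2 scale. MED31 held a mean of only 9.07 CPM in NS libraries, and 58.4% of its exon bases overlap exons of TXNDC17 on the opposite strand.

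In the NCOA6 methyltransferase complex, 2 of 9 subunits rose (17.8% of all genes) and 1 fell (17.4% of all genes). PAXIP1 and RBBP5, noncatalytic subunits of the complex, rose by 0.61 (SE 0.12) and 0.44 (SE 0.11) on the log2 scale. KDM6A, its histone demethylase, fell by 0.44 on the log2 scale (SE 0.06, edgeR adjusted p = 3.11e-07). The catalytic subunits KMT2C and KMT2D were at 0.02 and -0.02, the median of the list was 0.02, and NCOA6 itself did not pass.

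None of the 7 other acetyltransferases passed in edgeR over both treatments, with a median of -0.24. KAT2B had the lowest value at -0.52 (edgeR adjusted p = 0.0148), in vehicle alone it was -0.74 and passed (edgeR adjusted p = 0.00602), and in DHT alone it was -0.30 and did not (edgeR adjusted p = 0.31). It was chosen for mention after its values were seen.

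Of 37 tested other receptor coactivators, 9 rose (17.8% of all genes), 6 fell (17.4% of all genes) and 22 did not pass, with a median of 0.13. PPRC1, related to the PGC coactivators, and BAG1, a chaperone cofactor, rose by 0.57 (SE 0.12) and 0.49 (SE 0.12) on the log2 scale. RNF14, a ubiquitin ligase and receptor coactivator, fell by 0.69 (SE 0.10), and PIAS2, a SUMO ligase, fell by 0.53 (SE 0.13) on the log2 scale.

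Among the ferritin and iron genes that surround the role of NCOA4, 2 of 7 tested fell (17.4% of all genes) and none rose, with a median of -0.09. FTL, the ferritin light chain, fell by 0.40 on the log2 scale (SE 0.07, edgeR adjusted p = 2.72e-05). ACO1, an iron-sensing RNA-binding protein, fell by 0.39 (SE 0.09, edgeR adjusted p = 7.73e-04). The ferritin heavy chain FTH1 was at -0.17 (edgeR adjusted p = 0.0261) and the transferrin receptor TFRC at -0.05 (edgeR adjusted p = 0.633), neither past the threshold. By treatment, FTH1 was called lower in vehicle (-0.24, edgeR adjusted p = 0.00899) and not in DHT (-0.10, adjusted p = 0.297), and ACO1 was called lower in DHT (-0.44, adjusted p = 0.00343) and not in vehicle (-0.30, adjusted p = 0.07). The difference between treatments did not pass for any gene of the list. With DHT in NS libraries no gene of these 5 lists passed in edgeR, out of 30, 9, 7, 37 and 7 tested.

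**Figure D5:**
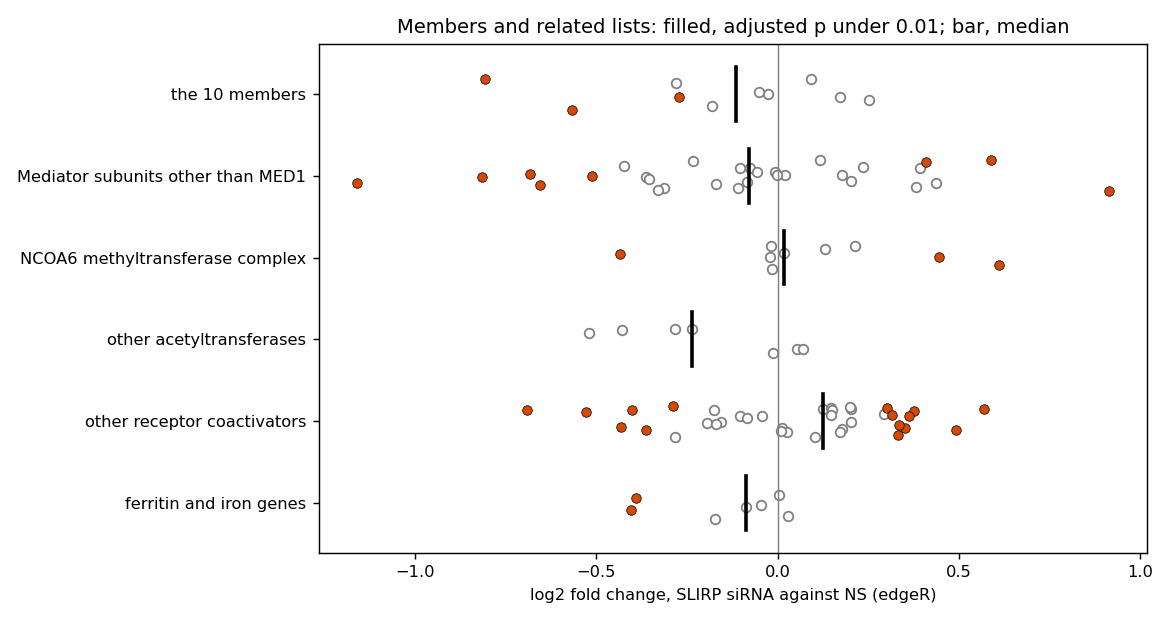
Log2 fold change with SLIRP knockdown over both treatments (horizontal axis) for the 10 coactivators and 5 lists of related genes; each point is a gene, filled where the adjusted p from edgeR was under 0.01, and the bar is the median of the list. Filled points lie on both sides of 0 in the Mediator, methyltransferase and other coactivator lists, and to the left alone among the 10 coactivators (3) and the iron genes (2).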

How the data were processed

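Total RNA of LNCaP cells was sequenced with single reads of 50 bases. The authors aligned reads to hg19 and deposited RSEM expected counts per gene, already rounded (CASAVA and RSEM are named without versions in the submitters' processing notes). They also deposited a score for 13148 genes, each count scaled to a library upper quartile of 1000. Of the 20531 entries, 29 had no symbol, and these stayed in the count table that was filtered and fitted.

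Counts were fitted with edgeR 4.0.16 in R 4.3.3 (TMM, filterByExpr, quasi-likelihood test) on the whole table, with Benjamini-Hochberg adjustment and a threshold of 0.01. The siRNA comparison used 16 libraries without a covariate, the DHT comparison the 8 NS libraries, and the others a model of 4 groups. Alternatives were DESeq2 1.42.0, limma 3.58.1 on log2(score + 1), other scalings, filters, models and left-out libraries. The scripts were tested on simulated data. Between 436353 and 1689708 counts a library limit precision for genes with few counts, among the members CARM1 above all.

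Lengths and positions are from GENCODE 44 lifted to hg19 (union of exons), and start windows from RefSeq on GRCh38.p14. Strand use in counting is not given in the sources used here, so overlapping genes cannot be told apart. Members and lists were chosen with earlier results of these data known. Named genes were all 10 members, the 2 largest rises and falls past the threshold in each list, up to 4 DHT calls a list, and the 5 genes most like NCOA2. Some of the genes this rule picks are not reported here. Libraries of a group differed by 1.21 to 2.37 chi-square per degree of freedom, so none counted as a repeat of another.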

Additional observations from a re-analysis of the deposited data

Results flagged for a closer look

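In 1 of the 40 sets of 4 libraries (10 genes in 4 groups) a library stood apart from the rest of its group by Dixon's ratio. CREBBP held 200.8 CPM in NS-Veh replicate 3, where the next library held 161.4 CPM, a gap of 0.912 of the whole range, which is above the 95% critical value for 4 samples. Chance alone gives such a library in about 1 of 20 groups. Without it the difference of CREBBP between SLIRP knockdown and NS was 0.33 on the log2 scale (edgeR adjusted p = 0.00161), against 0.25 (adjusted p = 0.0157) with it.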

How the results depend on the processing

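At an adjusted p of 0.05 in place of 0.01, 5 members were called for SLIRP knockdown against NS, CREBBP and MED1 being added. Fitted over both siRNAs (chosen after seeing the data), 1 member, NCOA7, was called for DHT. All other counts of called members stayed within 1.5 times. Leaving out 1 library gave 3 to 4 members for knockdown against NS, 2 to 2 in vehicle, 2 to 3 in DHT, and 0 to 0 for DHT in NS, for DHT after knockdown and for the difference in DHT response. NCOA2 was called in all 3 siRNA comparisons under every alternative run. The call of NCOA4 in DHT was also lost with RLE scaling (adjusted p = 0.0145), without the low-count filter (0.0174), with only the groups compared (0.0146) and in replicates 3 and 4 (-0.15, adjusted p = 0.305). The cause was not tested. Between groups, correlations of libraries with the same replicate number had means of 0.0287 to 0.137, depending on the groups compared. For libraries with other numbers the means were -0.0446 to -0.00918. The lowest single value with the same number was 0.000111, and 1 to 3 of 4 libraries matched their own number best. Whether replicate numbers pair the libraries was not tested. With the replicate block CREBBP was added to the calls (0.24, adjusted p = 0.00823), giving 4 members, and no other member call changed; over all genes the block called 169 higher and 101 lower for DHT in NS (88 and 48 without it) and 138 and 110 after knockdown (68 and 57). Other counts over all genes differed too, some by over 1.5 times. For DHT in NS they were 50 and 39 with DESeq2, 19 and 8 with limma and 153 and 83 without a filter. At an adjusted p of 0.05 they were 164 and 108, over both siRNAs 280 and 193, and in the model of 4 groups 83 and 33. Replicates 1 and 2 gave 43 and 32, and replicates 3 and 4 gave 64 and 34. With 1 library left out the counts were 56 to 76 and 24 to 41. For DHT after knockdown they were 123 and 97 without a filter, 157 and 152 at 0.05, 21 and 41 with limma, 42 and 33 or 42 and 31 in the pairs of replicates, and 44 to 73 and 28 to 52 with 1 library left out, while upper-quartile scaling turned the split to 52 and 74. For knockdown the pairs of replicates called 1101 and 956 or 1162 and 966 over both treatments (1812 and 1769 in all libraries), 721 and 576 or 783 and 682 in vehicle (1256 and 1063), and 1007 and 731 or 857 and 712 in DHT (1370 and 1237), and limma called 792 and 1096 in DHT. At an adjusted p of 0.05 knockdown called 1755 and 1646 in vehicle and 1896 and 1858 in DHT. The difference in DHT response had 5 and 6 calls without a filter, none of them a member. By the longest transcript in place of all exons, 6 levels moved by over 1 SD. They went to 29.0 (NCOA1), 22.1 (EP300), 16.2 (CREBBP), 11.8 (CARM1), 83.9 (NCOA4) and 12.7 (NCOA6) CPM per kilobase. NCOA4 stayed highest, but NCOA1 then stood above MED1 (27.5), and NCOA3 (11.6) was lowest in place of CARM1.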
